A study of Mus musculus with 10 samples.

Results

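The genes of the p53 pathway were followed by RNA sequencing in mouse bone marrow-derived macrophages held under a low ceiling. The list holds 34 genes: Trp53, which encodes p53, and 33 of its targets and regulators. They were found by symbol in the deposited table, and 33 of the 34 averaged 10 or more normalized reads across the 10 libraries, as did 12455 genes in all. Perp, a p53 target of epithelial cell junctions and death, did not: it had between 0 and 3 reads in each library, and it was not tested.

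Precursors from the femurs of wild-type (WT) animals and of WASp knockout (WKO) animals became macrophages in 7 days of culture, all with M-CSF at 20 ng/mL. WASp, encoded by Was, is the blood cell protein that switches on Arp2/3 to build branched actin. Silicone micropillars kept the confined cells at 3 µm for 1 h, and unconfined cells carry the treatment label Control, with no further account of how they were handled. There were 2 WT unconfined libraries (replicates 1 and 3), 2 WKO unconfined (1 and 3), 3 WT confined (2, 3 and 6) and 3 WKO confined (1, 2 and 5). The labels do not say which mice or cultures the replicates came from, so p-values measure only the spread between these libraries, which may be technical.

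p53 is a transcription factor that is held low by the ubiquitin ligase Mdm2 and restrained by its relative Mdm4. Damage to DNA and other stresses release it from Mdm2, and it then raises genes for cell cycle arrest, cell death, DNA repair and metabolic restraint, as well as Mdm2 itself, which closes a feedback loop. Many of these genes also answer to other stress factors, such as NF-kB, ATF4, FOXO, HIF, the glucocorticoid receptor or SRF. The members were therefore separated into 19 p53-specific genes (18 tested), 13 stress-shared genes (all tested), and the pair Trp53 and Mdm4. The sorting used general knowledge and was made with earlier results of these data known. Stress-shared genes are those placed among genes that other stress factors also raise, and they include p53 targets such as Cdkn1a, Bbc3, Pmaip1 and Gadd45a. The p53-specific genes are the remaining targets and regulators, and the term does not mean that nothing else acts on them.

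The libraries held between 13295701 and 19329908 reads. Was had between 1308 and 1649 normalized reads in the 5 WT libraries and between 96.9 and 154 in the 5 WKO libraries, which do not overlap. All 9 macrophage markers were detected in every group, Adgre1 between 19572 and 25809 and Csf1r between 21303 and 37839. Markers of other cells were present too and were mostly higher in WKO: the summed level of 13 neutrophil markers ran from 3501 to 12366 in WT and from 9959 to 33275 in WKO libraries, and that of 12 stromal markers from 184 to 1746 in WT and from 842 to 9879 in WKO, with overlapping ranges. The highest stromal sum was in WKO confined replicate 5, which also held the highest value of the 10 libraries for 11 of the 33 members. These markers also moved with confinement averaged over genotypes: none of the 13 neutrophil, 10 stromal and 5 B cell markers tested had a change above 0 on the log2 scale, with medians of -1.27, -0.74 and -1.14. Of these, Elane and Cd79b were called lower, and 7, 1 and 1 in that order had an unadjusted p under 0.05, beside 2686 of all 12455 genes. By genotype, 0 of 10 stromal markers had a change above 0 in WT (median -1.72). In WKO 7 of 10 did (median 0.15), and none was called in either genotype. The 9 macrophage markers had a median change of 0.03 and no call by limma, with 0 at an unadjusted p under 0.05. In bulk RNA, fewer cells of a type and less RNA per cell cannot be told apart. The part of other cell types in the results below was not tested. Called changes of members for which replicate 5 was the highest library are also given without it.

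Of the 34 members, 26 had a promoter window in RefSeq (GRCm38.p6), which spans 250 bases before to 50 after an annotated start. The windows of 6 are shown because they belong to members that stand out in the values below and differ in the motifs they hold. They are Cdkn1a (chr17:29090729-29091028 on the plus strand), Mdm2 (chr10:117710709-117711008 on the minus strand), Bbc3 (chr7:16309333-16309632 on the plus strand), Plk2 (chr13:110394794-110395093 on the plus strand), Fas (chr19:34290409-34290708 on the plus strand) and Gadd45b (chr10:80929841-80930140 on the plus strand). Capitals mark motif matches on either strand: p53 half-sites in Cdkn1a and Mdm2, overlapping NF-kB sites in Bbc3, a cyclic AMP response element in Plk2 and an AP-1 site in Fas.
Cdkn1a: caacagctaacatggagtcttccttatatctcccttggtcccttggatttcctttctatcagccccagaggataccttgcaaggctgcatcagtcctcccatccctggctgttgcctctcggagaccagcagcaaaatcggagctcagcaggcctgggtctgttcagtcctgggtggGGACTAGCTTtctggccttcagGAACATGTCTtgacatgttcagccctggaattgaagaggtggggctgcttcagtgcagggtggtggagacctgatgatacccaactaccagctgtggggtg
Mdm2: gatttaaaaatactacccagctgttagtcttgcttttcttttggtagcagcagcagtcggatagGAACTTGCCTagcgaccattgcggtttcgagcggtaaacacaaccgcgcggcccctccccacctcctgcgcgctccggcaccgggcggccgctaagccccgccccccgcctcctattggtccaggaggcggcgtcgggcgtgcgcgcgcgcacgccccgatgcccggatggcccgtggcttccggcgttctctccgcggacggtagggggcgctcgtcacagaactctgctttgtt
Bbc3: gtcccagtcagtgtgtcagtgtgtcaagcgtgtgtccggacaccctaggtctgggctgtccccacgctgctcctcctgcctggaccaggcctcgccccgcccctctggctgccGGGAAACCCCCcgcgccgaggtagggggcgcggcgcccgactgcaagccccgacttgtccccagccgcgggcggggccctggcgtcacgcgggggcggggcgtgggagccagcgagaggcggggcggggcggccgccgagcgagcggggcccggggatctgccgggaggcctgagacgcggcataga
Plk2: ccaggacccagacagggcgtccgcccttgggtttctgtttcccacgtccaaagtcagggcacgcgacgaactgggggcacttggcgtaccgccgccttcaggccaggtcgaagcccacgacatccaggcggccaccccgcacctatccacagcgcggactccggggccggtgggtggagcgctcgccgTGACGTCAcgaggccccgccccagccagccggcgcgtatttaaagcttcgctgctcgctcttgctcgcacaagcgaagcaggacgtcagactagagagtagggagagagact
Fas: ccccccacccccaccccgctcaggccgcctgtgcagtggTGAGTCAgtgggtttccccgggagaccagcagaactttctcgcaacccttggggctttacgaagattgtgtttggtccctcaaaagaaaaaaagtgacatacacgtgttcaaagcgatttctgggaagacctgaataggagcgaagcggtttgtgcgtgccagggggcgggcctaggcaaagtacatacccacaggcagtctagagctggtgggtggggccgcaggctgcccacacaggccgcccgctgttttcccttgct
Gadd45b: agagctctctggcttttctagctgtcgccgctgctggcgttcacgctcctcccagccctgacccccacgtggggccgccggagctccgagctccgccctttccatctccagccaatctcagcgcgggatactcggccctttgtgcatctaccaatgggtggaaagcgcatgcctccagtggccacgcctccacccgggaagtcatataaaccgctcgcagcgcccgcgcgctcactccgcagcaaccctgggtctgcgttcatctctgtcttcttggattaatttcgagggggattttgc

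A full p53 site was counted as a pair of half-sites no more than 13 bases apart. Among the 26 members with a window, only Cdkn1a held one within it. Its half-sites GGACTAGCTT and GAACATGTCT lie 12 bases apart, in the more upstream of the gene's listed windows. Directly after GAACATGTCT stands tgacatgttc, which departs from the half-site motif in its first letter only and was therefore not counted. Which of these stretches p53 binds was not tested. Such a pair occurs in 0.073% of all 32851 promoter windows. Single half-sites are common, in 8.36% of all windows, and were found in 12 of 33 member windows, from 11 genes: Cdkn1a, Mdm2, Trp53, Bax, Gadd45a, Ccng1, Sesn1, Ei24, Aen, Ppm1d and Polk. The NF-kB site, in 4.51% of all windows, was in Bbc3 and Trp53. The cyclic AMP response element TGACGTCA, in 1.79% of windows, was in Plk2 and Ppm1d, and the AP-1 site TGANTCA, in 7.81%, in Fas and Mdm4. The ATF4 composite TGATGNAA, in 3.97%, was in Gadd45g and Polk, and the CArG box bound by SRF, in 1.63%, in Tigar. The Gadd45b window held none of the motifs searched. A match is a description of letters and no evidence of binding. Sites outside these windows, and sites that depart from the motif by a letter, were not searched.

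Confinement moved a subset of the pathway. Averaged over the genotypes, 9 of 33 members passed the limma threshold (Benjamini-Hochberg adjusted p under 0.05 over all genes tested): Gadd45b, Mdm2, Pmaip1, Fas, Bbc3, Cdkn1a and Sesn3 rose, and Sesn1 and Mdm4 fell. Over all tested genes 6.21% were called, 4.13% higher and 2.07% lower. The median log2 change of the members was 0.27, with 26 of 33 above 0, against a median of -0.02 and 47.3% above 0 over all tested genes. Changes are given as log2(value + 1) differences, so those of low genes come out too small.

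**Figure D1:**
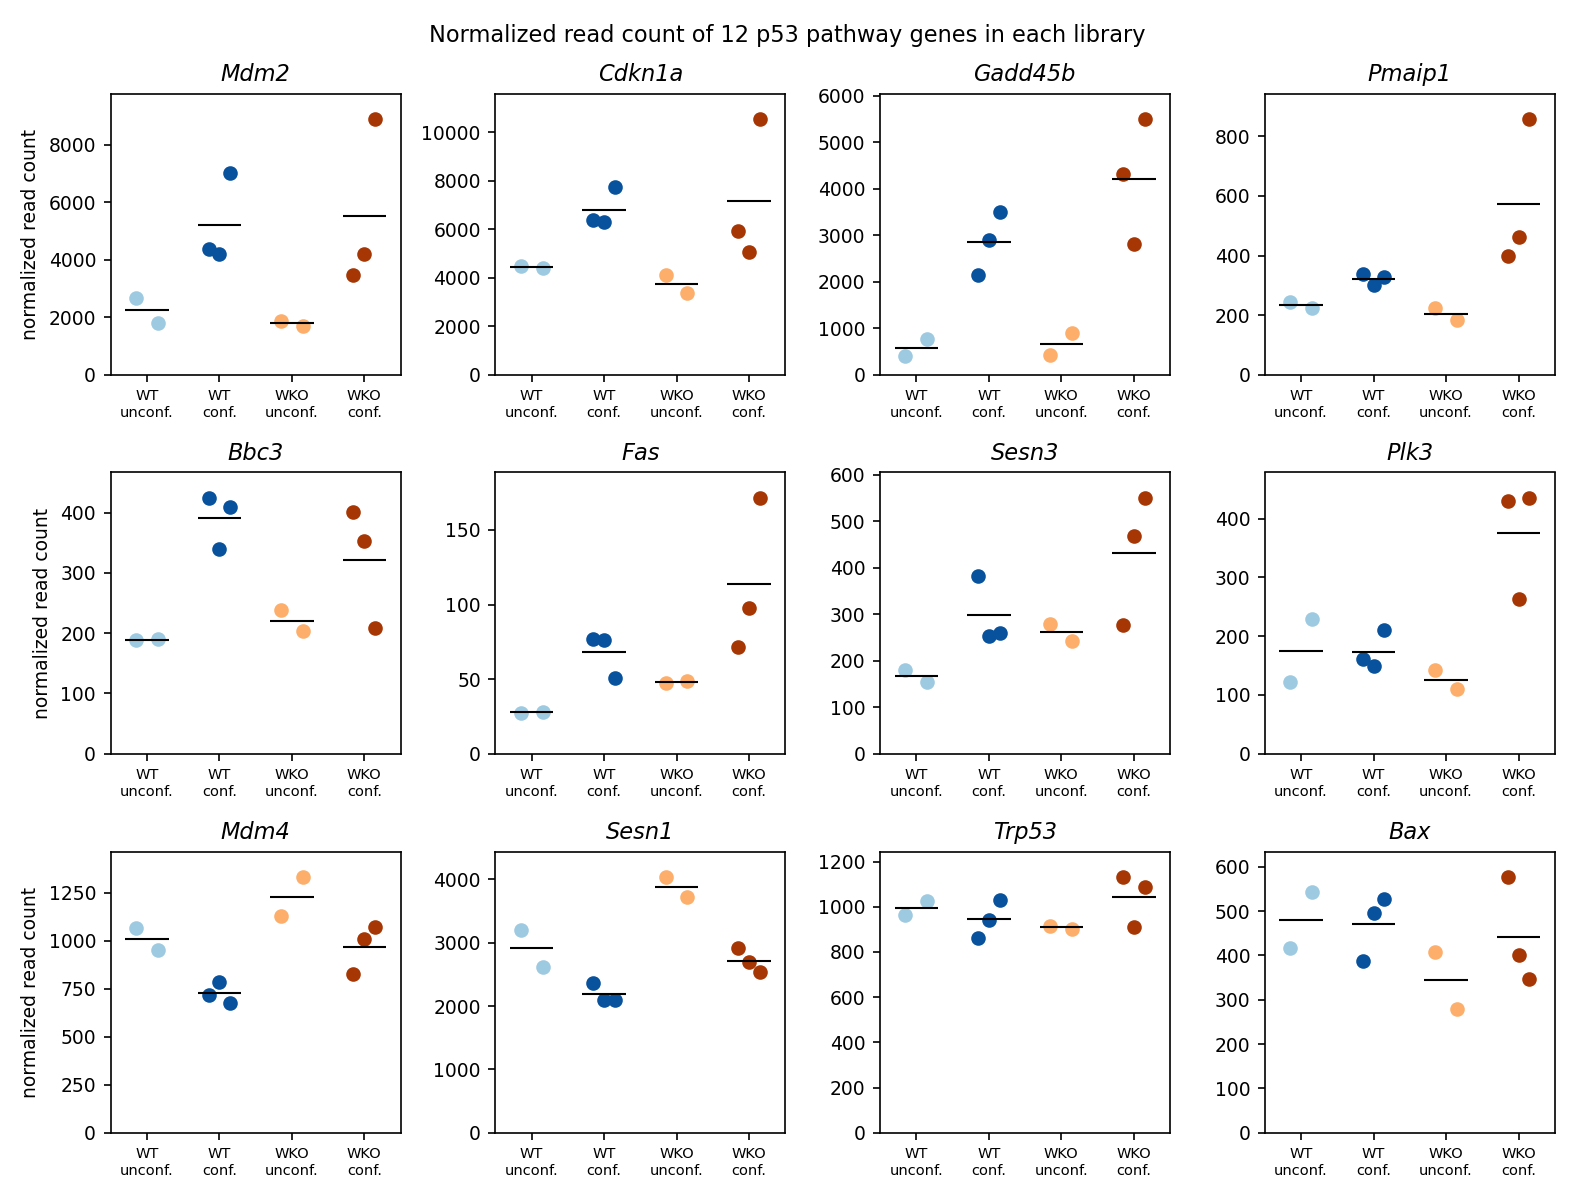
Normalized read count (vertical axes, from 0) of 12 members in each library; points are libraries, horizontal lines are group means, and the groups are WT and WKO, unconfined (unconf.) and confined (conf.). For Mdm2, Cdkn1a, Gadd45b, Pmaip1 and Fas, all 6 confined libraries lie above all 4 unconfined libraries, and for Trp53 and Bax confined and unconfined libraries overlap.

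The regulators of p53 are described first. Trp53 itself had 963 and 1024 normalized reads in WT unconfined, 917 and 902 in WKO unconfined, 863, 942 and 1030 in WT confined, and 1131, 912 and 1087 in WKO confined libraries. Confined and unconfined libraries overlapped. Its log2 change with confinement was 0.06 (95% interval -0.14 to 0.26, limma adjusted p 0.765), and a processed pseudogene, Trp53-ps, matches 20.2% of its longest transcript, which leaves its count uncertain. p53 is regulated mainly as a protein, which these data do not measure.

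Mdm2, the ligase and feedback target of p53 (GRCm38, chr10:117688875-117710758, minus strand), had 2681 and 1817 normalized reads in WT unconfined and 1875 and 1697 in WKO unconfined libraries. After confinement it had 4360 (replicate 2), 4220 (replicate 3) and 7005 (replicate 6) in WT and 3460 (replicate 1), 4202 (replicate 2) and 8899 (replicate 5) in WKO. Every confined library was above every unconfined one, and the highest value in each genotype came from a single library. The averaged change was 1.35 (SE 0.24, 95% interval 0.82 to 1.88, limma adjusted p 0.0069), and it was 1.14 without WKO confined replicate 5. Mdm2 was the one p53-specific gene that rose. Its changes within WT, 1.19, and within WKO, 1.5, did not pass on their own (limma adjusted p 0.152 and 0.051). Without replicate 5 both passed, at 1.19 and 1.1.

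Mdm4, which binds p53 and blocks its activation domain (GRCm38, chr1:132959484-133030561, minus strand), moved the other way. It had 1067 and 952 in WT unconfined, 1129 and 1333 in WKO unconfined, 720, 787 and 679 in WT confined, and 828, 1012 and 1072 in WKO confined libraries. The WT confined libraries were below both WT unconfined ones, and the WKO confined libraries below both WKO unconfined ones, but the genotypes overlapped across conditions. Mdm4 fell by 0.41 on the log2 scale (SE 0.10, limma adjusted p 0.0378). This call was lost when any of 8 of the 10 libraries was left out, namely all but WKO confined replicates 1 and 5, with adjusted p up to 0.180, and 10 of 21 alternatives kept it. Ppm1d, the phosphatase Wip1 that turns p53 signalling off, had 169 to 194 reads in unconfined and 185 to 374 in confined libraries, and its change of 0.44 was not called (limma adjusted p 0.146).

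Among the 7 arrest genes all changes were above 0, with a median of 0.79, and Gadd45b and Cdkn1a were called. Cdkn1a encodes p21, the inhibitor of cyclin-dependent kinases (GRCm38, chr17:29090976-29100727, plus strand). It had 4499 and 4412 normalized reads in WT unconfined, 4096 and 3370 in WKO unconfined, 6367, 6281 and 7757 in WT confined, and 5946, 5046 and 10539 in WKO confined libraries. All confined libraries were above all unconfined ones, and the WKO confined replicate 5 was the highest. Cdkn1a rose by 0.74 (SE 0.17, 95% interval 0.36 to 1.11, limma adjusted p 0.0272), and by 0.58 without that replicate. The call was lost when any of 7 libraries was left out, which are all 4 unconfined and all 3 WT confined libraries, with adjusted p up to 0.128. An unnamed transcript, AC167363.2, overlaps a Cdkn1a exon on the opposite strand over 261 bases, and because the use of strand is not given, part of the count is uncertain.

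The Gadd45 proteins bind p21, PCNA and stress kinases, and their genes differed in size of change. Gadd45b (GRCm38, chr10:80930073-80932204, plus strand), better known as a target of NF-kB and TGF-beta than of p53, had 393 and 772 in WT unconfined and 435 and 892 in WKO unconfined libraries. It had 2149, 2900 and 3496 in WT confined and 4328, 2814 and 5501 in WKO confined libraries, so that the lowest confined value was above the highest unconfined one. It rose by 2.52 (SE 0.26, limma adjusted p 0.000161), or by 2.41 without WKO confined replicate 5, and was the only member called in each genotype alone, by 2.34 in WT (limma adjusted p 0.0089) and 2.70 in WKO (limma adjusted p 0.0034). These within-genotype calls were lost without unconfined replicate 1 of the same genotype, with changes of 1.85 in WT and 2.19 in WKO. Without WKO confined replicate 5, the change in WKO was 2.48.

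Gadd45a, the family member most tied to p53, had 450 and 839 in WT unconfined, 586 and 1099 in WKO unconfined, 948, 1099 and 991 in WT confined, and 964, 1241 and 1092 in WKO confined libraries. Unconfined replicate 3 was far above replicate 1 in both genotypes, and the WKO groups overlapped. The change of 0.58 was not called (limma adjusted p 0.104). Gadd45g had the widest spread of the family, from 93.7 to 426 in unconfined and from 307 to 800 in confined libraries, and its change of 1.01 was not called (limma adjusted p 0.154). Replicate 3 was also the higher unconfined library for Gadd45b and Gadd45g in both genotypes.

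The Polo-like kinases Plk2 and Plk3 act in centriole duplication and checkpoint signalling. Plk2 had 4852 and 4650 in WT unconfined, 3092 and 1456 in WKO unconfined, 4477, 4714 and 9829 in WT confined, and 4508, 4216 and 9890 in WKO confined libraries. In WT, 1 of 3 confined libraries was above the unconfined ones, whereas in WKO all 3 were. Its averaged change of 0.88 was not called (limma adjusted p 0.107). Plk3 had 122 and 229 in WT unconfined, 142 and 110 in WKO unconfined, 161, 149 and 211 in WT confined, and 429, 263 and 435 in WKO confined libraries. Within WKO, Plk3 rose by 1.54 (SE 0.30, limma adjusted p 0.0272), a call lost without either WKO unconfined library (1.72 without replicate 1 and 1.36 without replicate 3) or without WT confined replicate 2. Without WKO confined replicate 5 it was 1.42. Within WT its change was 0.04. The difference between the genotypes was 1.5 (unadjusted p 0.0045), which did not pass over all genes (limma adjusted p 0.999). Ccng1, cyclin G1, which recruits a phosphatase to Mdm2, was abundant and stayed between 3148 and 4324 in all libraries, with a change of 0.13 (95% interval -0.06 to 0.33).

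**Figure D2:**
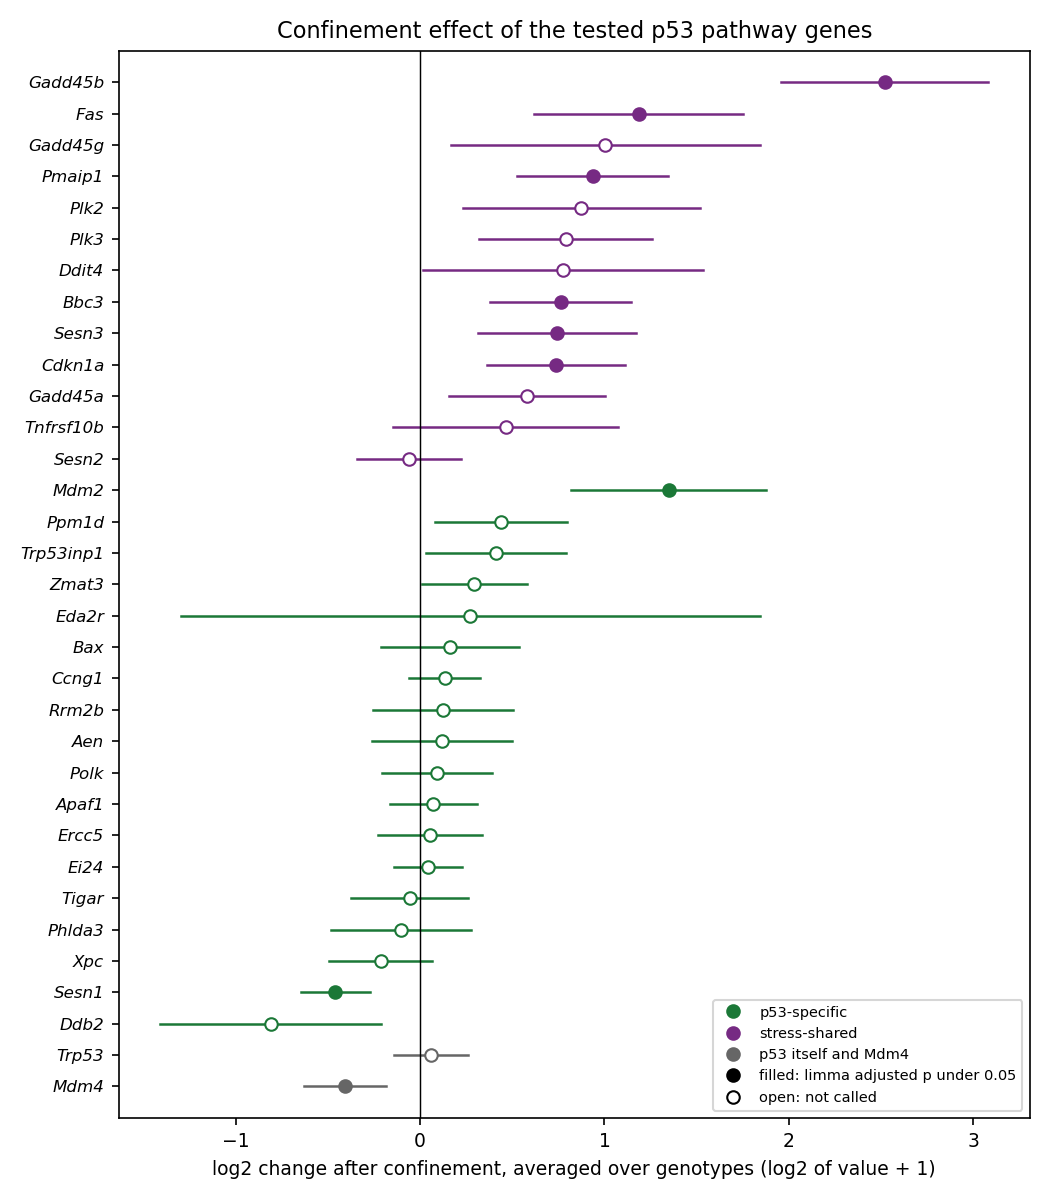
Log2 change after confinement averaged over genotypes (horizontal axis) for the 33 tested members, grouped by class; points are limma estimates, lines are 95% intervals, and filled points passed the threshold. Gadd45b at 2.52 and Mdm2 at 1.35 have the highest estimates, and most p53-specific genes lie near 0.

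Among the 12 tested cell death genes, 3 rose: Pmaip1, Fas and Bbc3. Pmaip1 (Noxa) and Bbc3 (Puma) are BH3-only proteins that free the mitochondrial death machinery. Pmaip1 had 245 and 224 normalized reads in WT unconfined, 224 and 184 in WKO unconfined, 339, 301 and 329 in WT confined, and 400, 463 and 858 in WKO confined libraries. The confined libraries were all above the unconfined ones, and WKO confined replicate 5 was again the highest. Pmaip1 rose by 0.94 (SE 0.19, limma adjusted p 0.0133), and by 0.77 without replicate 5. The call was lost without WT unconfined replicate 3 (0.90) or WKO unconfined replicate 3 (0.87). It also rose within WKO, by 1.41 (limma adjusted p 0.0219), a call lost without either WKO unconfined library (1.55 without replicate 1 and 1.27 without replicate 3), and it was 1.08 without WKO confined replicate 5. Within WT its change was 0.46 (limma adjusted p 0.535).

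Bbc3 (GRCm38, chr7:16308393-16318205, plus strand) had 188 and 190 in WT unconfined and 239 and 203 in WKO unconfined libraries. It had 424, 339 and 410 in WT confined and 402, 353 and 208 in WKO confined libraries. The WKO confined replicate 5, which was the highest for Mdm2, Cdkn1a and Pmaip1, was the lowest confined library for Bbc3 and lay within the unconfined range. Bbc3 rose by 0.76 (SE 0.17, limma adjusted p 0.0253), and by 0.90 without replicate 5. The call was lost when any of 7 libraries was left out, namely all 4 unconfined ones, WT confined replicates 2 and 6 and WKO confined replicate 2, with adjusted p up to 0.116.

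Fas, a death receptor (GRCm38, chr19:34290666-34327772, plus strand), was low: 27.5 and 27.8 in WT unconfined, 47.4 and 48.5 in WKO unconfined, 77.1, 76.3 and 50.6 in WT confined, and 71.4, 97.9 and 171 in WKO confined libraries. The lowest confined value was just above the highest unconfined one. Fas rose by 1.19 (SE 0.26, limma adjusted p 0.0203), and by 1.02 without WKO confined replicate 5. The call was lost without any of the 4 unconfined libraries or WT confined replicates 2 and 3, with adjusted p up to 0.130. Tnfrsf10b, the other death receptor of the list, had between 30.6 and 99.6 in all libraries and was not called (change 0.46, limma adjusted p 0.367).

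The remaining death genes, all p53-specific, were not called. Bax, the pore-forming effector downstream of Puma and Noxa, had 416 and 543 in WT unconfined, 408 and 280 in WKO unconfined, 387, 496 and 527 in WT confined, and 577, 401 and 347 in WKO confined libraries, which overlap throughout. Its change was 0.16 (95% interval -0.21 to 0.54, limma adjusted p 0.632), and a coding gene model on the same strand, Gm45808, shares 140 bases of exon with it. Apaf1, the apoptosome scaffold, had a change of 0.07, Aen, a nuclease, 0.12, Ei24 0.04, Zmat3, an RNA-binding protein, 0.29, and Phlda3, an inhibitor of Akt, -0.10. Trp53inp1, a cofactor that favours death over arrest, had 968 and 916 in WT unconfined and 1832, 1588 and 1290 in WT confined libraries. In WKO it was already 1439 and 1604 in unconfined libraries and 1069, 2153 and 1894 in confined ones. Its averaged change was 0.41 (limma adjusted p 0.198). Eda2r, a receptor for ectodysplasin, passed the filter only through the WKO groups: it had 3.80 to 10.6 in WT and 2.11 to 63.5 in WKO libraries, where 63.5 was in WKO confined replicate 5.

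None of the 5 repair and nucleotide supply genes was called by limma (1 had an unadjusted p under 0.05, as did 2686 of all 12455 genes), and neither sign prevailed. Ddb2, a sensor of ultraviolet damage, had the lowest estimate of the members: 60.8 and 66.2 in WT unconfined, 98.7 and 110 in WKO unconfined, 27.9, 61.0 and 36.2 in WT confined, and 82.4, 44.2 and 41.9 in WKO confined libraries. Its change of -0.81 was not called (limma adjusted p 0.109), and 26.5% of its transcript is shared with Acp2. Xpc, its partner in damage recognition, had -0.21, Rrm2b, a subunit of ribonucleotide reductase, 0.12, the excision nuclease Ercc5 0.05 and the translesion polymerase Polk 0.09.

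The metabolic group held opposite calls within 1 family. Sestrins restrain mTORC1 and oxidative stress. Sesn1 (GRCm38, chr10:41809935-41908424, plus strand), the sestrin most tied to p53, had 3202 and 2619 in WT unconfined, 4036 and 3725 in WKO unconfined, 2371, 2103 and 2102 in WT confined, and 2921, 2688 and 2545 in WKO confined libraries. Within each genotype all confined libraries were below both unconfined ones. Sesn1 fell by 0.46 on the log2 scale (SE 0.09, limma adjusted p 0.0087), a call lost without WKO unconfined replicate 1 (change -0.43) and kept in 19 of 21 alternatives. Sesn3 (GRCm38, chr9:14275067-14333101, plus strand), a FOXO target, had 180 and 154 in WT unconfined, 280 and 242 in WKO unconfined, 381, 253 and 260 in WT confined, and 276, 468 and 550 in WKO confined libraries, with WKO confined replicate 1 within the WKO unconfined range. It rose by 0.74 (SE 0.20, limma adjusted p 0.0453). That call held in 2 of the 10 omissions only, those of WKO confined replicates 1 and 5, with adjusted p up to 0.173 in the others, and the change was 0.64 without replicate 5. Over all 21 alternatives 9 kept the call, and the change ran from 0.35 to 0.89. Sesn2, the sestrin raised by ATF4, had -0.06, with 367 to 552 in all libraries. Ddit4 (Redd1), an mTORC1 inhibitor raised by low oxygen and glucocorticoids, had 38.4 to 178 in unconfined and 52.5 to 180 in confined libraries (change 0.78, limma adjusted p 0.222). Tigar, a regulator of glycolysis, had -0.06.

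Levels compared per length of the longest transcript show how these genes rank. In WT unconfined cells Cdkn1a had 2142 normalized reads per kilobase, Plk2 1697, Ccng1 1043, Sesn1 764 and Mdm2 715. In WT confined cells Cdkn1a had 3270, Plk2 2264, Gadd45b 2218 and Mdm2 1652. Gadd45b went from 454 to 2218 per kilobase in WT and from 517 to 3282 in WKO. Cdkn1a was thus among the abundant members before confinement, and Fas, at 17.0 to 69.9 per kilobase over the group means, among the scarce ones.

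The classes differed in how many members were called. Of the 13 stress-shared genes, 6 rose (Gadd45b, Pmaip1, Fas, Bbc3, Cdkn1a and Sesn3), none fell, and 12 had a change above 0, with a median of 0.78. Of the 18 tested p53-specific genes, Mdm2 rose and Sesn1 fell, and 13 had a change above 0, with a median of 0.11. Over all genes 4.13% were called higher and 2.07% lower, and 47.3% had a change above 0. An unadjusted p under 0.05 was found for 11 stress-shared and 6 p53-specific genes, beside 2686 of all 12455 genes. Calls of 1 of 18 in each direction are too few to tell the p53-specific class from the background or to place it there. The difference between the classes was not tested, and these counts depend on how the genes were sorted. With WKO confined replicate 5 left out, 6 stress-shared and 3 p53-specific genes (Mdm2, Sesn1 and Ppm1d) were called, of 10 members in all. The same fit called 901 of all 12455 genes, 586 higher and 315 lower.

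Fewer members separated completely between the conditions. All 6 confined libraries were above all 4 unconfined libraries for 5 of 33 members (Cdkn1a, Mdm2, Pmaip1, Gadd45b and Fas) and below them for none. The other 4 members called, Bbc3, Sesn3, Sesn1 and Mdm4, had overlapping libraries. Over all tested genes this held for 4.46% above and 2.93% below.

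Other genes tied to p53 were counted beside the members. Of 20 further p53 targets 2 were called, both higher, and the median change was -0.06. Gdf15, a secreted stress cytokine, had 541 to 752 in unconfined and 2422 to 6074 in confined libraries and rose by 2.63 (limma adjusted p 6.48e-05). Btg2, an antiproliferative gene that is also an immediate early gene, had 313 to 632 in unconfined and 1066 to 2884 in confined libraries and rose by 1.92 (limma adjusted p 0.000706). Of 19 upstream kinases, cofactors and ligases, the deacetylase Sirt1 (0.78) and the acetyltransferase Crebbp (0.72) rose. Of 22 proliferation genes that p53 lowers through the DREAM complex none was called by limma, and their median change was -0.16. An unadjusted p under 0.05 was found for 4 of these 22, beside 2686 of all 12455 genes.

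The lists of other stress factors, which share a few genes with each other and from which the members were removed, moved to different extents in the same contrast. They were chosen with earlier results of these data known, so their shares describe the lists and test nothing. Of 22 immediate early genes 19 rose, with a median of 1.99, among them Klf4 by 3.65 and Fosb by 5.24. Of 16 NF-kB targets 12 rose, with a median of 1.96, led by the chemokines Cxcl1 (7.13) and Cxcl2 (6.79). Of 7 glucocorticoid receptor targets 5 rose (Per1, Dusp1, Tsc22d3, Sgk1 and Klf9), and of 9 FOXO targets 3 rose (Irs2, Klf2 and Bcl2l11). Of 13 ATF4 and CHOP targets 4 rose (Cebpb, Ppp1r15a, Slc7a11 and Atf4), and of 11 HIF targets Vegfa and Hk2 rose and Ankrd37 fell.

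**Figure D3:**
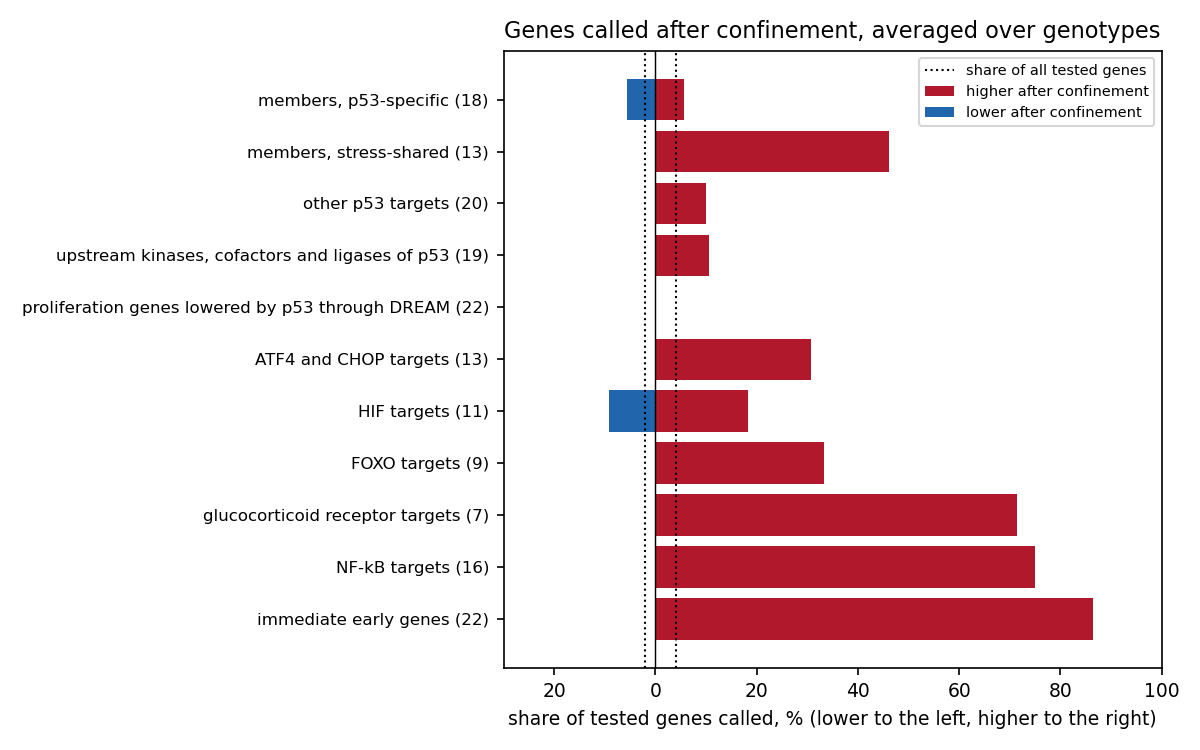
Share of tested genes called after confinement averaged over genotypes (horizontal axis, %; higher to the right, lower to the left) for the member classes and the accompanying lists, with the number tested in brackets; dotted lines mark the share of all tested genes, 4.13% higher and 2.07% lower. Immediate early genes (19 of 22) and NF-kB targets (12 of 16) have the longest bars, and p53-specific members (1 of 18 higher and 1 of 18 lower) have short ones. The classes and lists were chosen with earlier results of these data known, and differences between the bars were not tested.

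The genotypes were then set side by side. In WT alone 1 of 33 members was called, Gadd45b, against 1.16% of all genes (0.891% higher and 0.265% lower). In WKO alone 3 were called, Gadd45b, Pmaip1 and Plk3, all higher, against 1.72% of all genes (1.49% higher and 0.233% lower). The WT and WKO confinement effects come from different libraries, and 26 of 33 members had the same sign in both. The share of all tested genes with the same sign was not counted. A test of the difference between the effects called 0 members and 0% of all genes by limma, and 0 members by edgeR and by DESeq2. By limma 3 members had an unadjusted p under 0.05, beside 258 of all 12455 genes: Plk3 (1.5), Pmaip1 (0.95) and Polk (0.75), all higher in WKO. No gene's confinement response was shown to differ between WT and WKO in this design.

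**Figure D4:**
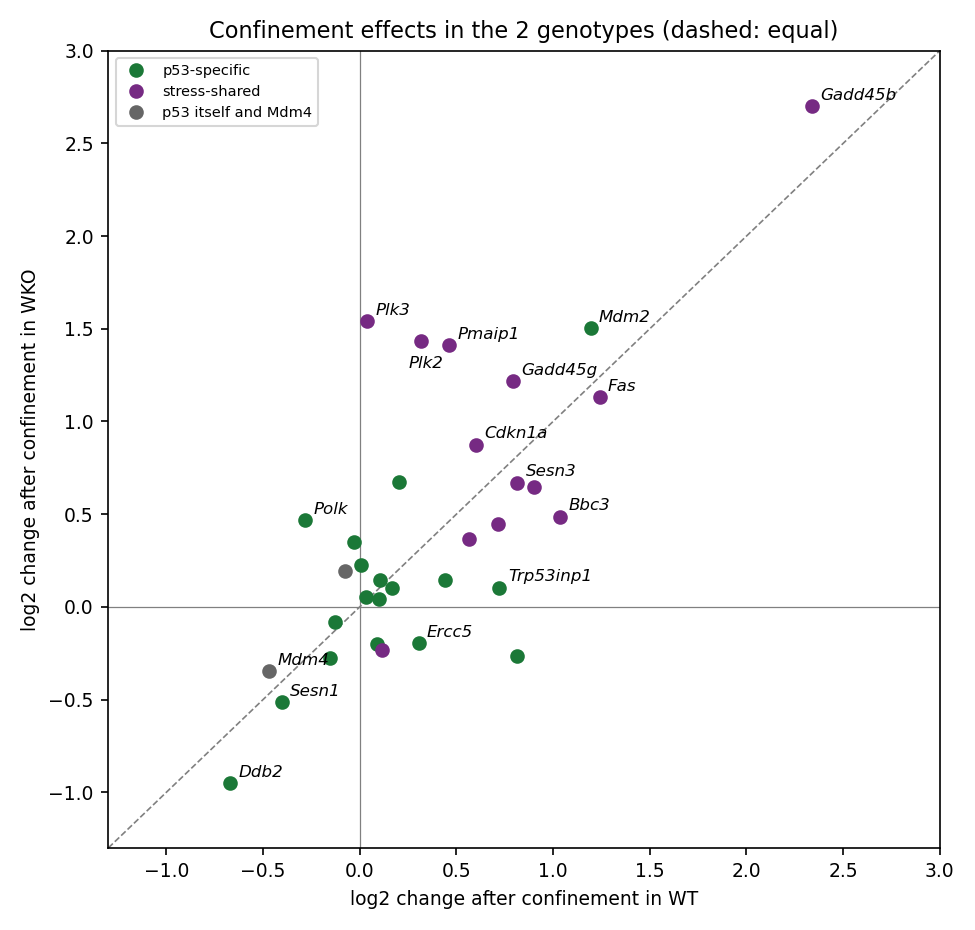
Log2 change after confinement in WT (horizontal axis) against that in WKO (vertical axis) for the 33 tested members, each point 1 gene coloured by class; the dashed line marks equal change. Gadd45b lies far from the rest at 2.34 and 2.70, and Plk3, at 0.04 and 1.54, lies farthest above the line.

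Without regard to confinement, the loss of WASp was accompanied by 1 call among the members. Sesn1 was higher in WKO, by 0.37 averaged over conditions (SE 0.09, limma adjusted p 0.0297), against 5.57% of all genes called (2.9% higher and 2.67% lower). It was higher in WKO in both conditions, by 0.42 in unconfined and 0.31 in confined cells, but the call was lost without any of 6 libraries (WT unconfined replicate 3, both WKO unconfined, WT confined replicates 3 and 6, and WKO confined replicate 2), with adjusted p up to 0.131. Mdm4 was also above its WT level in WKO, by 0.35, which was not called (limma adjusted p 0.0746). In the same contrast 7 of 13 neutrophil, 4 of 10 stromal and 1 of 5 B cell markers tested were called higher in WKO. So were 3 of 9 macrophage markers (Mertk, Csf1r and Lyz2) and 2 of 2 erythroid and megakaryocyte markers (Itga2b and Pf4), but 0 of 5 dendritic cell markers. The summed level of B cell markers ran from 414 to 892 in WT and from 1613 to 5202 in WKO libraries.

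In unconfined cells 0 of 33 members differed between WKO and WT by limma, against 0.145% of all genes, and 0 by edgeR and by DESeq2. By limma 3 members had an unadjusted p under 0.05, beside 1196 of all 12455 genes: Sesn1 (0.42), Trp53inp1 (0.69) and Plk2 (-1.16). In confined cells 0 members were called by limma, against 2.59% of all genes. An unadjusted p under 0.05 was found for 7 of 33 members, beside 2087 of all 12455 genes. No member was called by edgeR. DESeq2 called 2 members (Plk3 and Pmaip1), beside 775 of all 12455 genes by the same test. By limma, Plk3 had a difference of 1.09 (limma adjusted p 0.0598) and Pmaip1 of 0.75 (limma adjusted p 0.125). Of the 19 genes upstream of p53, 1 was called between the genotypes averaged over conditions, against 5.57% of all genes. This was the kinase Hipk2, lower in WKO with a change of -0.53 (limma adjusted p 0.0456).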

How the data were processed

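RNA of 10 libraries was sequenced: WT and WKO macrophages, unconfined (2 libraries each) or confined (3 each), grouped by the genotype and treatment labels. The deposited table gives, for each gene and library, a signal: the read count after scaling. FastQC, Trim Galore, STAR, GRCm38 and mm10 are named in the submitters' processing notes; the counting tool, annotation and use of strand are not given in the sources used here. All values above 0 were whole multiples of 1 step per library (100% within 0.001), so that reads were recovered by division and 3 reads correspond to 2.35 to 3.59 normalized reads. This floor covers counting error only, since PCR reads without molecular identifiers are not independent molecules. Scaling by 1 factor removes depth but not composition.

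Genes with a mean of at least 10 were tested as log2(value + 1) with limma 3.58.1 in R 4.3.3, in 1 fit of all 10 libraries with 1 mean per group (6 residual degrees of freedom), empirical Bayes with a mean-variance trend, and Benjamini-Hochberg adjustment over 12455 genes. Contrasts were confinement (averaged, in WT, in WKO), WKO against WT (averaged, unconfined, confined) and their interaction. The step was tested on simulated data: for confinement averaged over genotypes, on 12455 genes, 68 of 100 genes changed 2-fold and 89 of 100 changed 4-fold were recovered. Within WT 50 and 83 of 100 were recovered in that order, and within WKO 49 and 78 of 100. Each simulated gene had the same spread in all groups, whereas the WKO confined replicates differed most among the real groups. Alternatives were other pseudocounts, filters and scalings, edgeR 4.0.16 and DESeq2 1.42.0 on the recovered reads, array weights, no trend, a replicate block, fewer groups and each library left out.

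All members are named; of other lists, up to 5 genes with the smallest p. The members, classes and lists were chosen with earlier results of these data known. Positions, lengths, exon overlap and similar transcripts came from GENCODE M21 (GRCm38), promoters from RefSeq. Exons of Cdkn1a, Bax, Gadd45a, Plk3, Ddb2, Rrm2b, Ei24 and Tigar overlap another gene, and Trp53, Ddb2 and Rrm2b share sequence with one, so their counts are uncertain. Replicates differed by more than sampling noise (chi-square per degree of freedom 7.56 to 78.3) and were counted separately.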

Additional observations from a re-analysis of the deposited data

Results flagged for a closer look

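Polk and Ercc5 were picked from the 33 tested members because their libraries separated completely, in opposite directions, in the genotypes. The share of all genes that meet this rule was not counted. The p-values below come from the same values that picked these genes. Polk, the translesion polymerase, had 303 and 270 normalized reads in WT unconfined and 251, 235 and 221 in WT confined libraries, but 244 and 200 in WKO unconfined and 246, 314 and 369 in WKO confined libraries. The WKO effect exceeded the WT effect by 0.75 on the log2 scale (unadjusted p 0.0185, limma adjusted p 0.999), and by 0.61 without WKO confined replicate 5. Ercc5, the excision nuclease, had 176 and 147 in WT unconfined and 227, 179 and 192 in WT confined libraries, against 211 and 190 in WKO unconfined and 180, 175 and 169 in WKO confined libraries. Its difference, WKO less WT, was -0.50 (unadjusted p 0.0776, limma adjusted p 0.999). Neither passed over all genes.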

How the results depend on the processing

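Of 14 member calls none changed direction under any alternative, and 2, the averaged confinement calls of Gadd45b (limma adjusted p up to 0.0078) and Mdm2 (up to 0.0496), passed in all 21. For confinement averaged over genotypes, 9 members were called, 5 without the filter, 4 without a trend and 15 with array weights; stress-shared genes went from 6 to 3 and 2 without filter and trend, and p53-specific genes from 2 to 6 with array weights and 1 with the replicate block. In WT, 1 was called, 2 by DESeq2, 0 without a trend, 5 with array weights, 3 with the replicate block and 5 with only the groups compared. In WKO, 3 were called, 6 by DESeq2, 0 without a trend, 13 with array weights, 5 with the block and 1 with only the groups compared. For WKO against WT averaged over conditions 1 was called, 0 without filter or trend, 4 by DESeq2, 6 with array weights and 4 with the block. Unconfined, 0 were called, 1 with the block (Plk2) and 1 with only the groups compared (Trp53inp1), and confined, 0 were called, 2 by DESeq2 and 8 with array weights. Leaving out 1 library gave 3 (without WKO unconfined replicate 1) to 12 (without WKO confined replicate 1) for averaged confinement, where omitting WT unconfined replicate 1 or WT confined replicate 2 gave 4, and WT unconfined replicate 3 or WT confined replicates 3 or 6 gave 5. Such omissions gave 0 to 4 in WT, 0 to 8 in WKO, 0 to 5 for the averaged genotype contrast, 0 to 0 unconfined, 0 to 4 confined, 0 to 0 for the interaction, 2 to 6 stress-shared and 1 to 5 p53-specific genes.

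Over all genes the averaged confinement count ran from 288 to 2220 (773 as reported), WT from 20 to 455, WKO from 33 to 1735, the averaged genotype count from 169 to 1804, unconfined from 4 to 245, confined from 53 to 1948, and the interaction stayed at 0. For averaged confinement it was 1219 by DESeq2, 424 without a trend, 2220 with array weights and 383 with the replicate block. Without the filter it was 533 of 23591 genes, and without WKO confined replicate 1 it was 1807 of 12455. In WT it was 332 by DESeq2, 20 without a trend, 419 with array weights and 455 with only the groups compared. In WKO it was 484, 45, 1735 and 33 in that order. With the block it was 216 in WT and 222 in WKO, and without WKO confined replicate 1 it was 1043 in WKO. For the averaged genotype contrast it was 438 without the filter, 1147 by DESeq2, 360 without a trend and 1804 with array weights. Unconfined it was 10, 181, 4 and 166 in that order, 245 with the block and 189 with only the groups compared. Confined it was 186, 775, 53 and 1948, and 90 with only the groups compared. The averaged genotype count was 799 with the block. Without WKO confined replicate 1 the averaged genotype count was 1115 and the confined count 701. Upper-quartile scaling moved the median of all genes in averaged confinement to -0.10 and the split to 392 higher and 446 lower, against 515 and 258, and left 8 members called.

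The replicate numbers were not shown to pair the samples: deviations of same-numbered libraries correlated between -0.11 and 0.08, and 0 of 8 libraries correlated best with their own number. This cannot exclude pairing, since the deviations in a group of 2 libraries mirror each other. Over all genes, the replicate block took the unconfined genotype count from 18 to 245 and the averaged confinement count from 773 to 383. With the replicate block 6 members were called for averaged confinement, 6 higher and 0 lower: Gadd45a was added, and the calls of Sesn3 (change 0.35), Fas (1.00), Sesn1 (-0.43) and Mdm4 (-0.46) were lost, as was that of Sesn1 between the genotypes. With 2 unconfined libraries per genotype, every within-genotype call rests on few values, and depth limits the low genes Fas, Eda2r, Ddb2 and Perp.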
